A study of Homo sapiens with 8 samples.

Results

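The MYC, MAX and MXD network is a group of transcription factors that share 1 DNA site and compete for partners. Its 10 genes, MYC, MYCN, MAX, MXD1, MXD3, MXD4, MXI1, MNT, MGA and MLX, were taken by symbol from 19964 genes with a coding transcript. They have 26 transcripts in the deposited counts, of which 24 are coding, and for each gene the coding transcript with the most coding sequence (CDS) reads over both control ribo-seq libraries was used. The samples are of HEK293T, an established human embryonic kidney cell line that carries the SV40 large T antigen. Cultures received 40 µM sodium arsenite, an agent that causes oxidative stress and phosphorylation of the initiation factor eIF2, or vehicle as control, and were harvested after 30 min. Each treatment was profiled in 2 independent replicates by ribo-seq, which reads mRNA fragments protected by ribosomes, and by mRNA-seq, which gave 8 libraries. All values are of 1 line at 1 dose and 1 time.

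Members of the network pair through a basic helix-loop-helix leucine zipper and bind the E-box, CACGTG. MYC and its relative MYCN act with MAX as activators of genes for ribosome production, metabolism and growth. MXD1, MXD3, MXD4 and MXI1 form dimers with MAX that recruit the SIN3 and histone deacetylase corepressor, and MNT and MGA, the latter also a subunit of a Polycomb complex, are larger repressors that also need MAX. MLX is the partner in a parallel branch that senses glucose-derived metabolites. MYC mRNA and protein are both short-lived, so the supply of new MYC depends closely on ongoing transcription and translation.

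Some genes of the network hold the E-box next to their own start site. RefSeq promoter windows of 300 bases on GRCh38.p14 were used for 9 of the 10 genes (14 windows), all but MYC. The selection of windows left out the chromosome of MYC, so a promoter of MYC was not examined. The palindrome CACGTG, which reads the same on both strands, was in 3 of these genes, MXD4, MNT and MLX. It was in 8.77% of all 27305 genes with a window and in 7.26% of all 35116 windows. These include genes that were not tested here. The 30 bases around each match are shown because CACGTG is the site that the network is known to bind, with the motif in capitals, 5′ to 3′ on the strand of the gene. The MXD4 sequence is at chr4:2262330-2262359 on the minus strand, with the motif from -238 to -233 relative to the start site. The MNT sequence is at chr17:2401236-2401265 on the minus strand, with the motif from -193 to -188. The MLX sequence is at chr17:42567038-42567067 on the plus strand, with the motif from -50 to -45.
MXD4: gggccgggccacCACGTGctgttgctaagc
MNT: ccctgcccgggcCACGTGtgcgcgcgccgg
MLX: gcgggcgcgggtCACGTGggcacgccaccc
These are matches of letters, and binding was not measured.

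The ribo-seq libraries held 1023935 to 7270196 reads on the transcripts used and the mRNA-seq libraries 3993293 to 21724945, with replicate 2 the deeper one throughout. Of 13 genes associated with HEK293T by their neuronal and renal lineage, 11 to 12 had at least 10 mRNA-seq reads in a library, and together they made up 528 to 812 CPM (counts-per-million, here of a library's reads on the transcripts used). Of 21 markers of other cell types, 1 to 6 reached 10 reads, and together they made up 15.2 to 17.5 CPM. CD3E, HBB, KRT14, MYH7 and CDH5 were at 0 in all 4 mRNA-seq libraries. ATF4, a transcription factor known to be translated better when eIF2 is phosphorylated, served as a reference. Its translation efficiency (TE), the ribo-seq reads on the CDS relative to the mRNA-seq reads of the transcript, rose in arsenite, with a log2 change of 2.28 (SE 0.29, adjusted p = 0.00990). ODC1, the rate-limiting enzyme of polyamine synthesis and a classical MYC target, was the opposite reference, with a log2 TE change of -1.72 (SE 0.20, adjusted p = 0.00772). The study had already reported ATF4 as resistant and ODC1 as sensitive in these libraries. Their changes are thus reference points and not a test.

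At the level of mRNA, MYC rose in arsenite while the other members tested did not pass the threshold. MYC had 592 and 3254 mRNA-seq reads in control (replicates 1 and 2) and 692 and 4435 in arsenite. Scaled by TMM, which sets the bulk of mRNAs to no change, these were 152 and 162 CPM in control, against 179 and 198 in arsenite. Both arsenite libraries were above both control libraries. Such a separation is frequent with 2 libraries against 2, and its share over all genes was not computed. The log2 change was 0.27 (SE 0.054), a 1.21-fold difference, with 0.23 in replicate 1 and 0.29 in replicate 2 (edgeR quasi-likelihood test, adjusted p = 5.81e-05). MYC was the 1 gene called of 9 members tested, against 5.75% of all 12600 genes, or 3.75% counting only higher genes. With DESeq2 the log2 change was also 0.27, but the call was lost (adjusted p = 0.176), and without the replicate as a block it was 0.26 (adjusted p = 1.00). In a lysate of many cells more mRNA per cell and more cells with the mRNA cannot be told apart.

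MYCN, the relative of MYC best known from neuroblastoma, was near the limit of detection. Its transcript had 0 and 4 mRNA-seq reads in control, against 0 and 2 in arsenite, and 1 and 1 CDS ribo-seq reads in control, against 0 and 0 in arsenite. It was under the minimum mean of 10 reads for every test, so no change could be estimated at this depth.

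MAX, the common partner, had 109 and 101 scaled mRNA-seq CPM in control, against 98.7 and 96.7 in arsenite. The arsenite values lay below the control values by little, and the log2 change was -0.08 (SE 0.060, adjusted p = 0.507). Among the MAX-dependent repressors, MXD3 had the lowest fitted change, -0.33 (SE 0.11, adjusted p = 0.0502), from 12.9 and 21.0 CPM in control, against 12.1 and 16.2 in arsenite. The groups overlapped, the log2 changes were -0.08 in replicate 1 and -0.37 in replicate 2, and replicate 1 rested on 50 and 47 reads. With a minimum mean of 50 reads MXD3 was called (adjusted p = 0.0497). MXD1 (0.17, SE 0.10), MXD4 (-0.10, SE 0.064) and MXI1 (-0.03, SE 0.073) were also not called, and MXD1 and MXD4 differed in sign between replicates. MNT (0.10, SE 0.083) and MGA (0.10, SE 0.061) had small positive values in both replicates, and MLX (-0.13, SE 0.063) a negative value in both. Over the 9 members the median log2 RNA change was -0.03, against -0.01 over all genes.

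**Figure D1:**
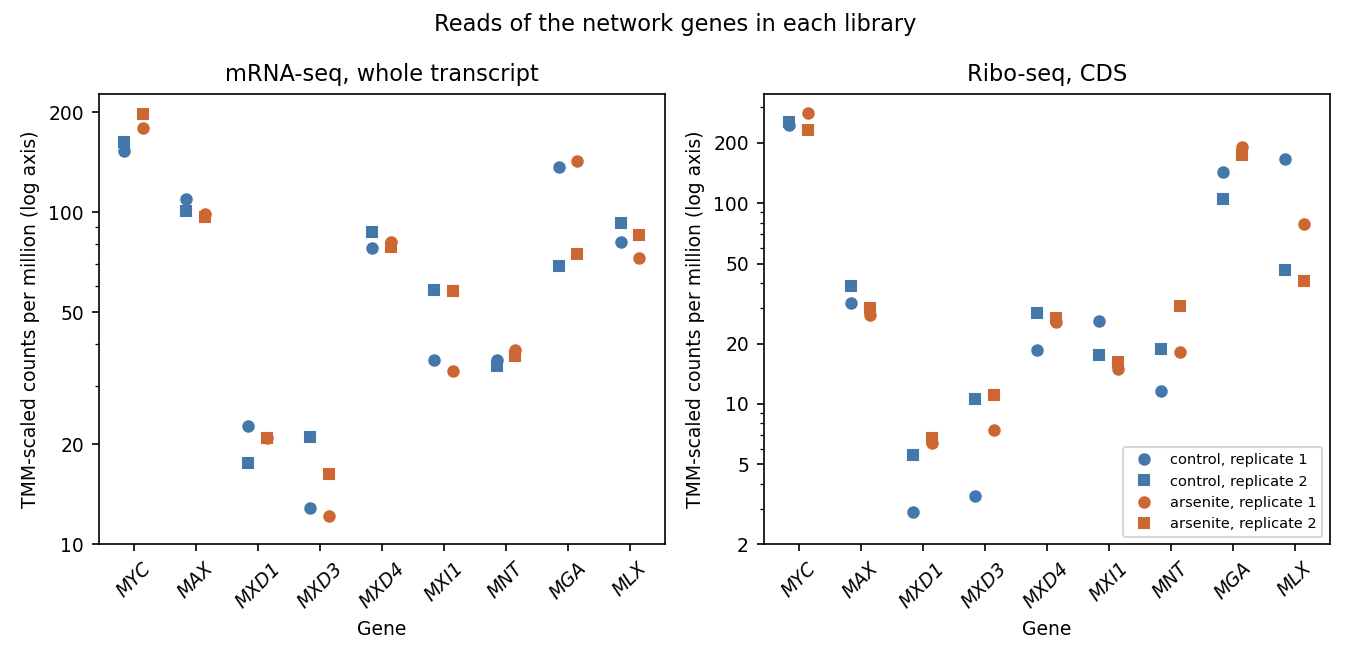
TMM-scaled CPM (log axis) of 9 network genes in each library, mRNA-seq over the transcript on the left and ribo-seq over the CDS on the right, for control and arsenite. Circles are replicate 1 and squares replicate 2. MYC mRNA in arsenite, at 179 and 198, lies above control, at 152 and 162, while the MYC footprint values of the treatments overlap.

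No change was detected in the ribosome-protected reads of the MYC CDS, its ribosome occupancy. MYC had 424 and 1946 CDS ribo-seq reads in control, against 263 and 753 in arsenite, and TMM scaling gave 245 and 253 CPM in control, against 280 and 231 in arsenite. The control values lay between the arsenite values. The fitted log2 change in ribosome occupancy was 0.02 (SE 0.18, adjusted p = 0.967), with 0.19 in replicate 1 and -0.13 in replicate 2. TMM removes the general decrease of translation, so these values say how MYC stood relative to the bulk of mRNAs and not whether its translation fell in absolute terms.

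MGA and MNT, both large MAX-dependent repressors, had the highest fitted occupancy changes of the network, and neither passed the threshold. MGA had 143 and 105 scaled CDS CPM in control, against 190 and 174 in arsenite. Its log2 change was 0.58 (SE 0.19, adjusted p = 0.0986), and with a minimum mean of 50 reads it was called (0.58, adjusted p = 0.0376). For MNT the values were 11.6 and 18.7 CPM in control, against 18.1 and 30.7 in arsenite, with a log2 change of 0.69 (SE 0.29, adjusted p = 0.200). The treatments overlapped for MNT, although it was higher in arsenite within each replicate, and replicate 1 rested on 20 and 17 reads. MAX had 31.8 and 38.8 in control, against 27.7 and 30.0 in arsenite, and a log2 change of -0.31 (SE 0.25, adjusted p = 0.574).

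The replicates of MLX stood far apart. Its scaled CDS reads were 165 and 46.3 CPM in control, against 78.8 and 41.1 in arsenite. The log2 change was -1.07 in replicate 1 and -0.17 in replicate 2, which gave a fitted value of -0.59 (SE 0.23, adjusted p = 0.166). The control library of replicate 1 stood above the other libraries. The share of reads that a shorter MLX transcript lacks, taken as the difference of the CDS counts of both transcripts, differed as well. In replicate 1 it was 58 of 286 control reads (20.3%, exact 95% interval 15.8 to 25.4), against 20 of 356 (5.62%, 3.47 to 8.54) in replicate 2. In arsenite the shares were 26 of 74 (35.1%, 24.4 to 47.1) and 11 of 134 (8.21%, 4.17 to 14.2). The intervals cover counting error only.

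The MXD genes had few footprints. MXD1 had 5 and 43 CDS reads in control, against 6 and 22 in arsenite, and MXD3 had 6 and 81 in control, against 7 and 36 in arsenite. Their log2 changes of 1.11 and 1.07 within replicate 1 thus rest on fewer than 10 reads per library, and within replicate 2 they were 0.26 and 0.07. MXD4, with 32 and 219 reads in control, against 24 and 87 in arsenite, had a fitted value of 0.09 (SE 0.28), and MXI1, with 45 and 135 in control, against 14 and 53 in arsenite, one of -0.35 (SE 0.30). No member was called for occupancy by edgeR, against 2.81% of all 10291 genes. DESeq2 called 0 of the 9 members too. At an unadjusted p under 0.05 there were 3 members with edgeR (MNT, MGA and MLX) and 1 with DESeq2. Of all 10291 genes, 1811 were at that level with edgeR and 613 with DESeq2.

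**Figure D2:**
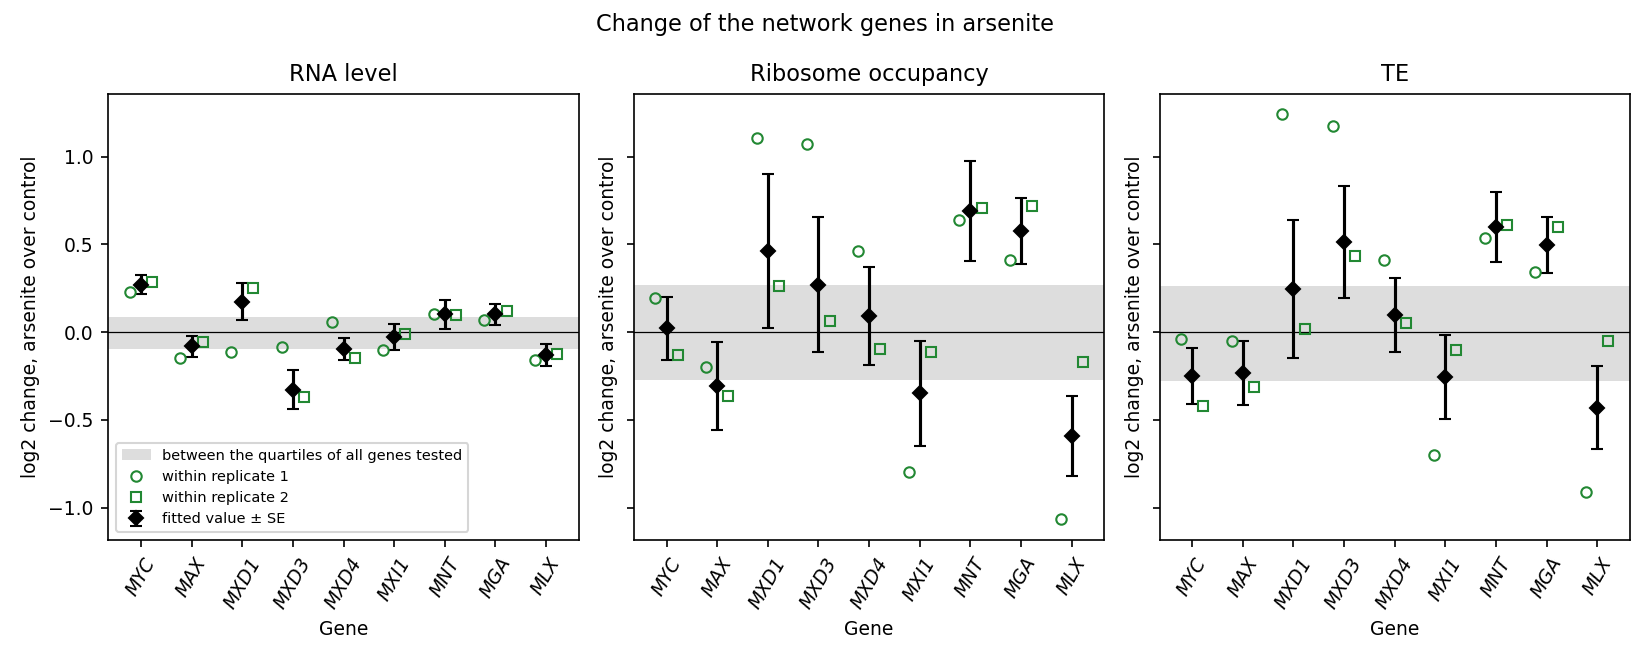
Log2 change in arsenite over control of 9 network genes, in RNA level, ribosome occupancy of the CDS and TE. Diamonds are fitted values with their SE, open symbols the change within each replicate, and the grey band the range between the quartiles of all genes tested. The RNA change of MYC, 0.27, lies above its band, MNT and MGA lie above theirs in occupancy and TE, and MLX, MXD1 and MXD3 show wide gaps between replicates.

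TE combines both measures. Since it uses the same libraries as the RNA and occupancy changes, it is not independent of them. MNT (0.60, SE 0.20, adjusted p = 0.128) and MGA (0.50, SE 0.16, adjusted p = 0.120) had positive values in both replicates, 0.54 and 0.61 for MNT and 0.34 and 0.60 for MGA. As folds these were 1.51 for MNT and 1.41 for MGA. With mRNA-seq reads limited to the CDS, the edgeR log2 TE change of MNT was smaller, 0.38 (adjusted p = 0.449). That of MGA was 0.46 (adjusted p = 0.196). MYC had a value of -0.25 (SE 0.16, adjusted p = 0.396), 0.84-fold, with -0.04 in replicate 1 and -0.42 in replicate 2. MAX was close to MYC, at -0.23 (SE 0.18, adjusted p = 0.493). The remaining values were 0.51 for MXD3 (SE 0.32), 0.25 for MXD1 (SE 0.39), 0.10 for MXD4 (SE 0.21), -0.26 for MXI1 (SE 0.24) and -0.43 for MLX (SE 0.24). None of the 9 members passed the threshold with edgeR, against 2.15% of all 10273 genes, and DESeq2 called 0 as well. Without adjustment, 2 members (MNT and MGA) had a p under 0.05 with edgeR and 0 with DESeq2. Of all 10273 genes, 2185 did so with edgeR and 919 with DESeq2, so the number of members does not stand out. All 9 had the same sign in both replicates, with 5 above and 4 below 0. Their median was 0.10 against -0.01 over all genes. Several values were close to 0 in 1 replicate, as for MXD1 (0.02), MXD4 (0.05), MAX (-0.05), MLX (-0.05) and MYC (-0.04). The share of all genes with the same sign was not computed. All 9 members lay between the references ODC1 and ATF4, which holds for nearly every gene. ODC1 stood at percentile 0.136 and ATF4 at percentile 99.9 of the genes tested.

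Because the reads of 2 members in 1 library share its depth, their ratio needs no scaling. In the mRNA-seq libraries the ratio of MYC to MAX reads was 1.39 and 1.61 in control, against 1.81 and 2.05 in arsenite, higher in arsenite in each replicate. In CDS footprints it was 7.71 and 6.53 in control, against 10.1 and 7.68 in arsenite. The ratio of MYC to MNT footprints went the other way, from 21.2 to 15.5 in replicate 1 and from 13.5 to 7.53 in replicate 2, and that of MYC to MGA from 1.72 to 1.48 and from 2.41 to 1.33. These ratios depend on transcript length, so that they can be compared between treatments but not read as amounts of 1 factor over another. A comparison of 2 libraries with 2 others cannot reach the threshold in an exact test, and none was run on the ratios.

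In untreated cells the fitted TE of the network spanned 0.82 to -0.90 on the log2 scale, and no member passed the threshold. Here TE was taken as CDS ribo-seq over CDS mRNA-seq in control, so that the length of the CDS cancels and genes can be compared, with 0 close to the median of all genes. MYC had the highest fitted log2 TE, 0.82 (SE 0.29, adjusted p = 0.0568), 1.77 on the linear scale and higher than that of 86.7% of genes, with 0.74 and 0.91 in the replicates. MXD4 had the lowest, -0.90 (SE 0.32, adjusted p = 0.0597), with -1.21 and -0.66. Between them came MLX (0.62, SE 0.42), MXD1 (0.61, SE 0.55), MNT (0.51, SE 0.38), MGA (0.39, SE 0.30), MAX (0.29, SE 0.31), MXI1 (-0.20, SE 0.33) and MXD3 (-0.35, SE 0.45). Between neighbours in this order only the gap of 0.48 between MAX and MXI1 exceeded its combined SE, of 0.45 if both values are taken as independent. The gap of 0.55 between MXD3 and MXD4 was about as large as its combined SE of 0.56. MLX (1.63 and -0.34), MXD1 (-0.75 and 1.29), MXD3 (0.32 and -0.57) and MXI1 (0.01 and -0.37) changed sign between replicates, so their places, and with them the gap between MAX and MXI1, are not settled. The other 5 members had the same sign in both. No member was called by edgeR, against 22% of all 10611 genes, and 0 were called by DESeq2. At an unadjusted p under 0.05 there were 2 members, MYC and MXD4, with edgeR and 2 with DESeq2. Of all 10611 genes, 3869 were at that level with edgeR and 3058 with DESeq2. ATF4 had a log2 TE of -2.14 in control (SE 0.39, adjusted p = 0.00256), below every member. Its replicates gave -1.39 and -2.89, and in replicate 1 MXD4, at -1.21, was close to it.

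**Figure D3:**
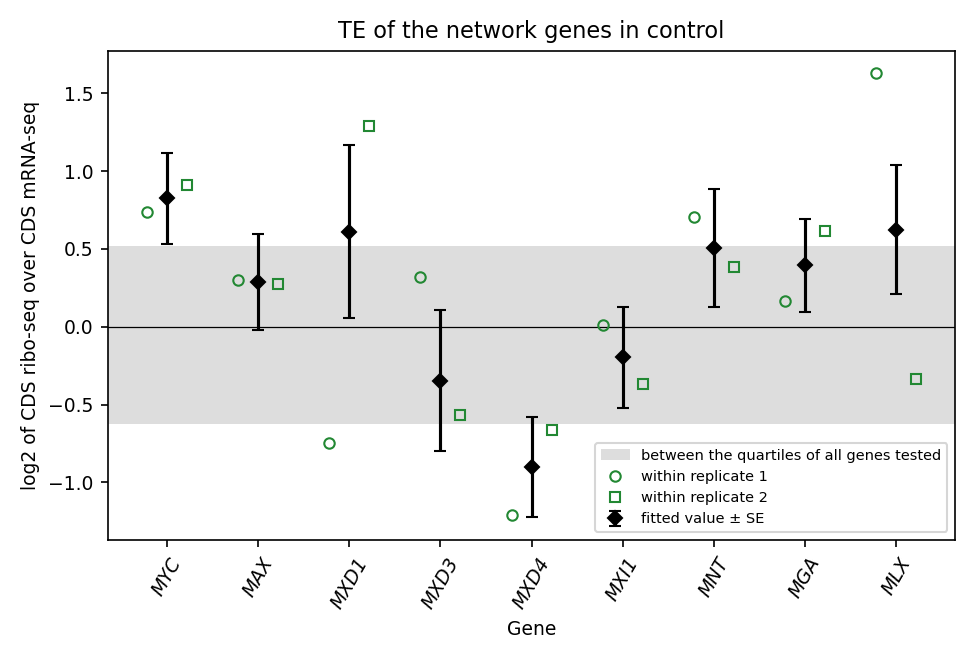
Log2 ratio of CDS ribo-seq to CDS mRNA-seq in control for 9 network genes, with fitted values and SE as diamonds, the replicates as open symbols, and the range between the quartiles of all genes tested in grey. MYC at 0.82 is the highest, MXD4 at -0.90 the lowest, and the replicates of MLX, MXD1, MXD3 and MXI1 lie on opposite sides of 0.

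The choice of the CDS as denominator matters in this family, whose mRNA reads are spread very differently along the transcripts. The 3′ UTR, which often holds sites that shorten the life of regulatory mRNAs, took 71.3% of control mRNA-seq reads of MAX in each replicate, 79.5% and 89.2% of those of MXD1, and 82.7% and 68.8% of those of MNT. For MGA it took 20.9% and 30.8%. It was uneven between replicates for MXI1, with 37.4% and 70.3%, and for MYC, with 4.39% of its reads in the 3′ UTR in replicate 1 (26 of 592) and 28.6% in replicate 2 (930 of 3254). The arsenite libraries of MYC showed the same gap, with 24 of 692 reads and 1235 of 4435. With mRNA-seq reads over the whole transcript in place of the CDS, the log2 TE in control became -1.14 for MAX, -0.77 for MNT and -1.67 for MXD1, and that of MYC 1.09.

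**Figure D4:**
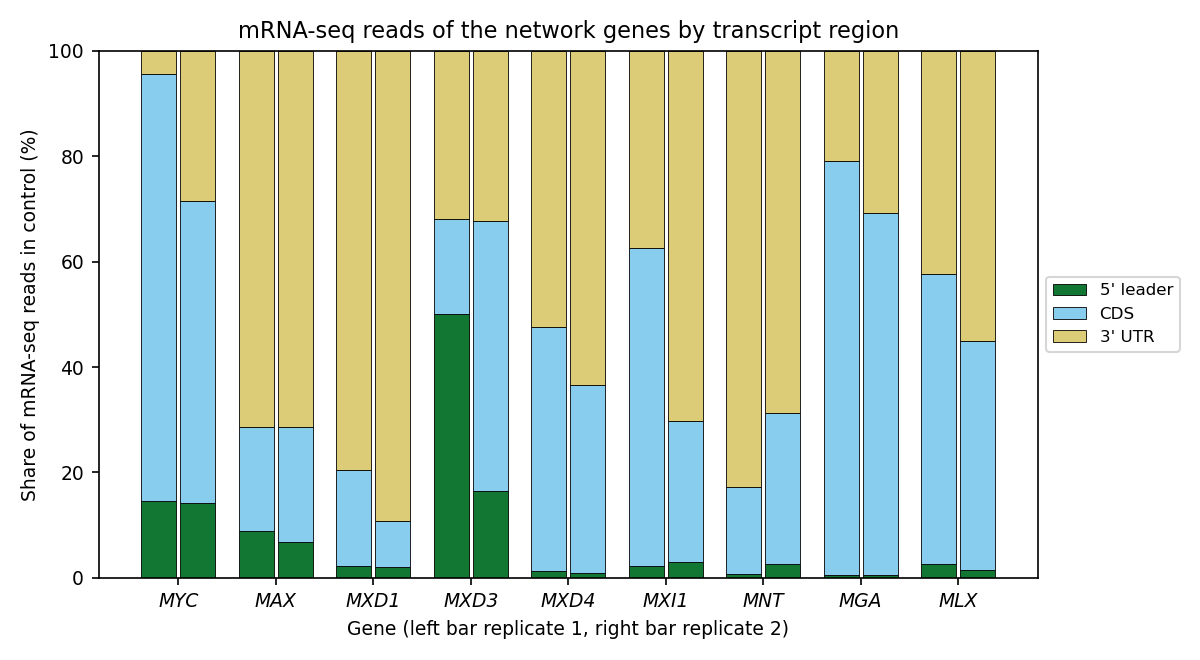
Share of the mRNA-seq reads of each of 9 network genes in the 5′ leader, the CDS and the 3′ UTR in control, in percent, with replicate 1 as the left and replicate 2 as the right bar. MAX, MXD1 and MNT reads lie mostly in the 3′ UTR, MYC and MGA reads mostly in the CDS, and the 3′ UTR of MYC holds 4.39% in replicate 1 against 28.6% in replicate 2.

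The higher level of MYC mRNA in arsenite was seen in the leader and the CDS of both replicates. Scaled by the total reads of each library, the log2 change of the leader was 0.34 in replicate 1 and 0.36 in replicate 2, and that of the CDS 0.21 and 0.29. The 3′ UTR gave -0.12 in replicate 1, from 26 to 24 reads, and 0.25 in replicate 2, from 930 to 1235 reads. Fitted on CDS reads alone, the RNA change of MYC was 0.26 (adjusted p = 0.0195).

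Ribosomes in the 5′ leader, the stretch before the main start codon, can mark upstream open reading frames, and the MYC leader is also known for a non-AUG start that gives a longer protein. MYC had 4 and 28 ribo-seq reads in the leader in control, against 6 and 13 in arsenite. As a share of leader and CDS reads these were 0.935% (exact 95% interval 0.255 to 2.38) and 1.42% (0.945 to 2.04) in control, and 2.23% (0.823 to 4.79) and 1.70% (0.907 to 2.88) in arsenite. The share was higher in arsenite in both replicates, and within each replicate the intervals overlapped. Relative to the CDS, leader reads of MYC had a log2 shift of 0.57 (SE 0.63, adjusted p = 0.561), below the median of 0.78 over all 647 genes that could be tested, of which 1.7% were called. For this single member tested, edgeR and DESeq2 gave no call and no unadjusted p under 0.05. In the deeper control library, the leader share of MYC was higher than that of 76.7% of 7710 genes with at least 100 reads. Dividing ribo-seq by mRNA-seq reads in the leader, and that ratio by the same ratio in the CDS, gave 0.058 for MYC in this library, between the lower quartile of 0.043 and the median of 0.100 over 2934 genes. ATF4 had 0.80.

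The leaders of the other members held 10 reads or fewer in a library. MAX had 0 and 10 in control, against 2 and 4 in arsenite, with shares of 3.25% (1.57 to 5.89) and 3.92% (1.08 to 9.74) in replicate 2. MNT had 0 and 3 in both treatments, and MGA had at most 2 beside 809 and 566 CDS reads in replicate 2. MXD1, MXD3 and MXI1 had 0 to 3. The leader of MLX had none in any library, which in control of replicate 2, with 356 CDS reads, allows a share of up to 0.843% (3 counts of the total). MXD4 likewise had none, which allows up to 1.37% in the control library of replicate 2. For these genes a change in leader use was not detectable at this depth.

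**Figure D5:**
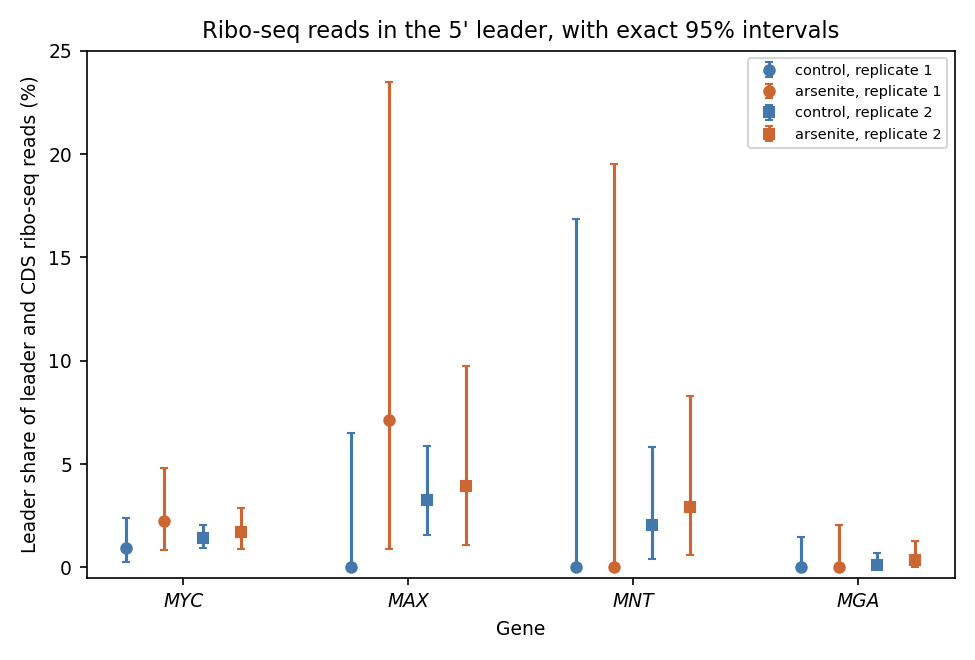
Leader reads as a percentage of leader and CDS ribo-seq reads of MYC, MAX, MNT and MGA in each library, with exact 95% intervals for counting error. MYC lies between 0.935% and 2.23%, and within each gene and replicate the intervals of control and arsenite overlap.

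MAX is made in several forms, 7 coding transcripts being listed, and in 1 of them much of the CDS of the transcript used is counted as 3′ UTR. The difference of the CDS counts of both gives the reads that this shorter CDS lacks. In control they were 38 of 55 and 145 of 298, which are 69.1% (exact 95% interval 55.2 to 80.9) and 48.7% (42.9 to 54.5). In arsenite they were 14 of 26 and 37 of 98, which are 53.8% (33.4 to 73.4) and 37.8% (28.2 to 48.1). The share was lower in arsenite in both replicates, with overlapping intervals. Reads on the shared part cannot be assigned to 1 form.

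The genes most like MYC were sought among 1093 genes with read numbers within 2-fold of those of MYC, by the Euclidean distance over the log2 changes in RNA level and occupancy in each replicate. Among the nearest were TECR at 0.149, TJP1 at 0.150, DDX46 at 0.155 and CTNNA1 at 0.156, against a median distance of 0.592. Since these changes chose the genes, the distances are a description and their likeness to MYC is not a result.

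Genes around the network were read from lists of its partners, cofactors and targets. Of 50 canonical MYC targets, 11 rose in RNA level and 0 fell, against 3.75% higher and 2% lower over all genes tested, with a median log2 change of 0.07 against -0.01 over all genes. Here and for the lists below, the shares of calls over all genes were not matched for read number. A call depends on that number, and whether it explains the differences from all genes was not tested. DESeq2 called 4 of them, and with no replicate block edgeR called no gene at all in RNA or TE, with 28 and 147 at an unadjusted p under 0.05. The largest rises were those of the glycolytic enzymes PKM (0.36, SE 0.048) and ENO1 (0.30, SE 0.049) and of RRP12, a ribosome assembly factor (0.32, SE 0.069). In TE, 0 of 49 rose and 2 fell, against 1.03% higher and 1.12% lower over all genes. They were ENO1 (-0.62, SE 0.14, adjusted p = 0.0490) and ODC1, which had been taken as a reference because it was known to be sensitive in these data. The median was -0.10 against -0.01. DESeq2 called 1 of the 49. In control, 19 of 49 targets passed the threshold with a TE above 0 and 2 with one below it, against 8.39% and 13.6% of all genes, and their median log2 TE was 0.82 against 0.01. The E-box was in the windows of 21 of 39 targets that have one, against 8.77% of all 27305 genes with a window. That background includes genes not tested here. Among genes tested for RNA level, 1219 had the motif and 8323 did not.

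Among 15 coactivators of MYC, 3 rose in RNA (3.75% of all genes) and 0 fell. Among them were TRRAP (0.22, SE 0.052), the scaffold of the histone acetylase complexes that MYC recruits, and CREBBP (0.18, SE 0.055), an acetylase. DESeq2 called 0 of the 15, with 2 at an unadjusted p under 0.05. In TE, 1 fell, the chromatin remodelling subunit SMARCB1 (-0.73, SE 0.15, adjusted p = 0.0451), and DESeq2 also called 1. Of 13 SIN3 and histone deacetylase corepressor genes, through which the MXD proteins act, 2 fell in TE (1.12% of all genes), NCOR1 (-0.91, SE 0.16, adjusted p = 0.0304) and HDAC2 (-0.68, SE 0.14, adjusted p = 0.0458), and 0 rose. DESeq2 called 2 as well. The median TE change of that list was -0.34 against -0.01. In RNA level edgeR and DESeq2 called 0 of the 13, with 5 and 0 at an unadjusted p under 0.05. Of all 12600 genes, 2316 were at that level in RNA with edgeR and 373 with DESeq2.

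Of 20 genes that control the turnover of MYC protein, 3 rose in RNA (3.75% of all genes), the ubiquitin ligase TRIM32 (0.37, SE 0.093), the deubiquitinase USP37 (0.22, SE 0.067) and the kinase PLK1 (0.16, SE 0.053), and 0 fell. DESeq2 called 0 of them in RNA, with 0 of the 20 at an unadjusted p under 0.05 and no adjusted p given for 9. In TE edgeR and DESeq2 called 0 of the 20, with 4 and 2 at an unadjusted p under 0.05. Of 16 regulators of MYC mRNA, 4 rose in RNA (again beside 3.75%), led by the initiation scaffold EIF4G1 (0.24, SE 0.049) and the RNA-binding proteins PTBP1 (0.22, SE 0.049) and HNRNPK (0.19, SE 0.048). EIF4G1, EIF4E and EIF4A1 also stand in the list of targets. In TE, 2 of 15 fell, the poly(C)-binding protein PCBP2 (-1.33, SE 0.20, adjusted p = 0.0214) and ELAVL1, which stabilizes mRNAs through AU-rich elements (-0.71, SE 0.15, adjusted p = 0.0486), and 0 rose. DESeq2 called 3 of these regulators in RNA and 1 in TE. Of 11 further partners of MLX, MGA and MAX, edgeR and DESeq2 called 0 in RNA and 0 of 10 in TE, with 1 and 3 at an unadjusted p under 0.05 in edgeR and 0 and 1 in DESeq2. At that level edgeR gave 2316 of all 12600 genes in RNA and 2185 of 10273 in TE, and DESeq2 gave 373 and 919.

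Several of these calls lay close to the threshold. The TE calls of SMARCB1, HDAC2, ELAVL1 and ENO1 were lost with upper-quartile normalization (adjusted p = 0.0598 to 0.0648), with a minimum mean of 50 reads (0.0512 to 0.0608) and with mRNA-seq limited to the CDS (0.0580 to 0.0763), and those of ELAVL1 and ENO1 also with DESeq2 (0.0723 and 0.0516) and with whole-transcript ribo-seq counts (0.0503 and 0.0518). The RNA calls of CREBBP, USP37 and PLK1 were lost with upper-quartile normalization (0.0506 to 0.0770) and on CDS reads (0.0753 to 0.453), and that of TRIM32 on CDS reads (0.0549). NCOR1, PCBP2 and ODC1 kept their TE calls in every setting tested other than the fit with no replicate block.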

How the data were processed

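Ribo-seq and mRNA-seq reads of HEK293T cells were processed by the authors, who trimmed adapters with Cutadapt, removed spike-in and rRNA reads, aligned the rest to RefSeq transcripts with Bowtie 1.0.0 and discarded reads shared by genes. Read length classes and A-site positions set the region of a footprint. The deposited values are read counts without normalization for 47087 transcripts, and the authors give the leader, CDS and 3′ UTR apart for 35851 coding ones, where the regions summed to the total in every library. The study's methods date the RefSeq download, and a genome build is not given in the sources used here.

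Counts of 1 coding transcript per gene were tested with edgeR 4.0.16 (R 4.3.3, quasi-likelihood F test, TMM, Benjamini-Hochberg over all genes tested, threshold 0.05, mean of at least 10 counts in each kind of count), with all genes in the fit. RNA level used mRNA-seq counts over the transcript and occupancy ribo-seq counts over the CDS. TE change was the interaction of assay and treatment over 8 libraries, control TE the assay effect on CDS counts, and leader shift the interaction of region and treatment. SE is the size of the log2 change over the square root of F, and within-replicate changes used a prior count of 0.5. The replicate entered as a block, since the study's methods give the replicates different adapters, runs and scaling. Libraries of a replicate deviated together (correlation 0.866 over 10880 genes in mRNA-seq and 0.793 over 7381 in ribo-seq). Spike-in reads were not used here. With counts simulated at these depths and a log2 change of 2, 97.5% of 200 changed genes were recovered for RNA level, 95.5% for occupancy, 91.5% for TE, 99% for control TE, and 51.6% of 64 for the leader shift. Every simulated gene had the same fixed dispersion, and the change was larger than any fitted for a member. These rates thus check the fits and do not give the power for changes of the members' size.

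All members, ATF4 and ODC1 were named, with up to 3 called genes per direction of each list for TE and RNA level that agreed in sign between replicates, and the 5 genes nearest to MYC. Of the genes this rule names, 2 are not reported here. The members and lists were chosen with earlier results of these data known. Settings tried besides were DESeq2 1.42.0, no filter or a mean of 50, upper-quartile normalization, no block, another transcript, other regions, and each replicate alone. Other software was Python 3.11.15, pandas 2.3.3, numpy 2.4.6, scipy 1.17.1 and matplotlib 3.10.9.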

Additional observations from a re-analysis of the deposited data

Results flagged for a closer look

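MAX had ribo-seq reads in the 3′ UTR of its transcript in 1 library, a region outside the comparisons. They were 7 of 109 reads (6.42%, exact 95% interval 2.62 to 12.8) in arsenite, replicate 2, against 0 of 308 in control of that replicate (exact 95% interval 0 to 1.19). A share of 3 counts in that control library would be 0.974%. In replicate 1 there were 0 of 28 reads in arsenite and 0 of 55 in control. Over all transcripts used, the 3′ UTR share in the same library was 0.755%, against 0.204% in its control.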

How the results depend on the processing

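Of the 9 members tested, 1 was called for RNA level (MYC). The number was 0 with DESeq2, 0 with no replicate block, and 2 with a mean of at least 50 counts, where MXD3 joined (adjusted p = 0.0497). For occupancy it went from 0 to 1 with a mean of at least 50 counts (MGA). For control TE it went from 0 to 1 with upper-quartile normalization (MXD4, adjusted p = 0.0358), to 1 with no filter (MYC, 0.0266), to 1 with a mean of at least 50 counts (MXD4, 0.0481) and to 4 with whole-transcript mRNA-seq reads. In that last setting MAX (-1.14, adjusted p = 0.0108), MNT (-0.77, 0.138) and MXD1 (-1.67, 0.00357) reversed, and MYC (1.09, 0.00819) and MXD4 (-1.39, 0.00276) passed the threshold. The TE change of MXD1 reversed to -0.024 when mRNA-seq reads were limited to the CDS. The cause was not tested.

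Over all genes, RNA calls numbered 725, of which 473 were higher, and 87 with DESeq2 (80 higher, adjusted p not given for 9283 of 12600 genes), 240 on CDS reads and 0 with no replicate block. Occupancy calls numbered 289, and 54 with DESeq2, 477 with upper-quartile normalization, 540 with no filter, 578 with the mean of 50 and 0 with no replicate block. TE calls numbered 221, and 95, 142, 458, 136 and 0 in the same order, and 80 with CDS mRNA-seq reads. Control TE calls numbered 2336, and 1544 with the mean of 50, 3629 with whole-transcript reads and 377 with no replicate block. Leader shift calls numbered 11, and 1 with DESeq2, 1 with the other transcript, and 0 with no filter, with the mean of 50 or with no replicate block. At an unadjusted p under 0.05 edgeR without the block gave 28 genes for RNA level, 150 for occupancy, 147 for TE and 2 for the leader shift. A replicate left out leaves no residual degrees of freedom, so only values are given. Without replicate 1 the RNA change of MYC was 0.29 and without replicate 2 it was 0.23.

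Depth limits the members most in replicate 1, where MXD1, MXD3 and MNT had 5 to 20 footprints per library.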

Other observations

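Genes with the E-box in a promoter window were compared with those without, as a description of letters near start sites. In RNA level, 7.96% of 1219 genes with the motif were called, against 5.73% of 8323 without it, and the median log2 change was -0.0041 and -0.0054. In TE, 2.17% of 1060 and 2.28% of 6888 were called, with medians of -0.03 and -0.02. Quartiles of the genes with the motif were -0.09 and 0.09 in RNA level and -0.30 and 0.21 in TE, and those of the genes without it were -0.10 and 0.09, and -0.28 and 0.26.

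E2F6, which joins MGA in its Polycomb complex, was named after its values were seen. It had the lowest TE change of the further partners, -0.94 (SE 0.24, adjusted p = 0.0657). Of 10 partners tested for control TE, 2 passed the threshold with a value below 0, against 13.6% of all 10611 genes. They were TFDP1, at -1.49 (SE 0.30, adjusted p = 0.00496), and MLXIP, at -1.40 (SE 0.34, adjusted p = 0.0122). Both were likewise named after their values were seen.

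MXD3 had 3′ UTR ribo-seq reads in replicate 2 of both treatments, 2 of 84 in control and 5 of 42 in arsenite, with exact 95% intervals of 0.290 to 8.34% and 3.98 to 25.6%.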
